A study of Citrus sinensis with 30 samples.

Results

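Phosphoenolpyruvate carboxykinase (PEPCK) was represented by 2 genes, PEPCK1 (Cs3g16700) and PEPCK2 (Cs1g20920), of the 24179 genes in the expression table of stored sweet orange (Citrus sinensis) juice sacs. They were chosen by their gene identifiers, and each had 1 row. RNA-seq libraries were made from the varieties TBO, the blood orange 'Tarocco', and BTSO, the sweet orange 'Bingtangcheng'. Fruit were sampled before storage (0 days after storage, DAS) and after 15, 30, 60 or 90 days in a temperature-controlled chamber. Each of the 10 groups had 3 biological replicates, which gave 30 libraries. The labels name no other treatment, and the mature fruit of 0 DAS were the reference for the storage changes. The study bought the fruit of both varieties from an experimental station. The labels name no trees or plots, so variety and growing plot cannot be told apart. Each replicate was a bulk sample of juice sacs taken from several fruit, in which fewer cells of a type and less RNA per cell cannot be told apart. No list of markers that define juice sacs was available to check the tissue label.

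PEPCK uses ATP to turn oxaloacetate into phosphoenolpyruvate with release of carbon dioxide, and it thereby opens the route from organic acids back to sugars. Phosphoenolpyruvate carboxylase (PEPC) catalyses a carboxylation in the opposite direction, which supplies oxaloacetate for the synthesis of malate and citrate. In plants PEPCK is known from germinating oil seeds, where it serves the conversion of stored lipid to sugar, and from the flesh of ripening fruit, where organic acids are broken down. The abbreviation needs care. The study expands it as the kinase of PEPC, which is a different enzyme, while the deposited annotation describes both genes as ATP-dependent phosphoenolpyruvate carboxykinase (EC 4.1.1.49, KEGG orthology K01610). The only gene described as a PEPC kinase was Cs8g12690, with a mean FPKM of 1.01 over the 30 libraries.

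The assembled locus of PEPCK1 held 3 transcripts, of which 1 was a reference transcript, and that of PEPCK2 held 7 transcripts, of which 4 were reference transcripts. The table lists no chromosome or position for either locus, and expression is given per gene, so the transcripts were not resolved. The primer pairs that the study designed for quantitative PCR are shown as the sequences by which it addressed each gene. They are given 5′ to 3′ in lower case, with no part marked.
PEPCK1, first primer: gccgaccaagttctcagaca
PEPCK1, second primer: cacgctaacattcatcaccatc
PEPCK2, first primer: ggctagcgaagattcaaacg
PEPCK2, second primer: gtccctttaatgggggtgtt

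Expression was measured as FPKM, fragments scaled to the length of the transcript and to the size of the library, which allows levels of different genes to be compared per length. Total estimated counts ranged from 51894138 to 75833189 per library. The 10 most abundant genes held 5.65% to 19.0% of the estimated counts of a library, with the 5 lowest shares in TBO at 60 and 90 DAS and the highest in BTSO at 30 DAS, replicate 1. The seed list of 16 genes, mostly annotated as basic 7S globulin-like, had a summed FPKM of 25.96 to 47.2 in every group except TBO at 60 and 90 DAS. In these 2 groups it ranged from 126 to 285 and from 82.1 to 177. Of these 16 genes, 5 stayed under an FPKM of 1 in all libraries, among them 2 of the oleosins. The most abundant gene of the list, oleosin 1 (orange1.1t03751), stayed at or under 27.1 in all libraries. By contrast, the basic 7S globulin-like gene Cs9g06160 reached 107.8, so the sum does not stand for all genes of the list. The leaf list of 7 genes had a mean summed FPKM of 32.7 at 0 DAS and 19.6 at 90 DAS in TBO, and of 36.9 and 18.0 in BTSO, and its part in the storage changes was not tested. The vascular list of 5 genes stayed at or under a summed FPKM of 2.43, and 4 of them were under 1 in all libraries.

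PEPCK1 was among the most abundant transcripts of TBO juice sacs. In TBO its FPKM was 658, 724 and 582 in the 3 replicates at 0 DAS, 759, 847 and 772 after 15 days, and 1060.2, 940.2 and 877 after 30 days. It was 880.2, 810.4 and 849 at 60 DAS, and 819, 829 and 798 at 90 DAS. Ranked by FPKM among all 24179 genes, PEPCK1 stood between position 25 and position 58 in the 15 TBO libraries. All TBO libraries from 15 DAS onwards lay above the 3 of 0 DAS, and the group mean was highest at 30 DAS, at 959 ± 93.0 (SD, n = 3) against 655 ± 71.0 at 0 DAS.

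In BTSO, the FPKM of PEPCK1 was 207, 200.3 and 201 at 0 DAS, 229, 274 and 234 after 15 days, and 234, 323 and 372 after 30 days. It was 325, 391 and 325 at 60 DAS, and 278, 364 and 292 at 90 DAS. Its position among all genes ran from 90 to 288 in the 15 BTSO libraries. As in TBO, all libraries of the later days lay above those of 0 DAS, and here the highest group mean, 347 ± 37.7 (n = 3), was at 60 DAS. At 30 DAS the lowest of the 3 libraries was replicate 1, in which the 10 most abundant genes took 19.0% of the counts, against 12.8% and 13% in the other two. The part of this difference in the PEPCK1 value was not tested.

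PEPCK2 was the minor transcript in every library. In TBO its FPKM was 108, 72.5 and 106 at 0 DAS, 66.9, 74.3 and 59.1 after 15 days, and 63.4, 98.3 and 89.5 after 30 days. It was 92.0, 120.3 and 175 at 60 DAS, and 135, 137 and 146 at 90 DAS. The group mean was lowest at 15 DAS, at 66.8 ± 7.61 (n = 3), and highest at 90 DAS, at 139 ± 5.93, where all 3 libraries exceeded those of 0 DAS. The higher means after 30 DAS fell on the same days as the high sum of the seed list. That sum does not stand for all genes of the list, and oleosin 1 stayed at or under an FPKM of 27.1 in all libraries. At 60 DAS the 3 libraries had summed seed FPKM values of 126, 169 and 285, in the same order as their PEPCK2 values, whereas at 90 DAS the seed values were 135, 82.1 and 177 at nearly equal PEPCK2 levels. The part of the genes behind the high sum in the PEPCK2 level was not tested.

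In BTSO, PEPCK2 had an FPKM of 30.3, 32.3 and 30.4 at 0 DAS, 14, 14.8 and 13.8 after 15 days, and 11.8, 10.3 and 17.2 after 30 days. It was 15.9, 12.6 and 25.95 at 60 DAS, and 42.2, 18.6 and 23.8 at 90 DAS. The 9 libraries of 15, 30 and 60 DAS lay below all 3 libraries of 0 DAS, and at 90 DAS 1 library lay above them and 2 below. The position of PEPCK2 among all genes ran from 1725 to 6649 in BTSO and from 278 to 1239 in TBO. From the lowest to the highest library, PEPCK2 varied 2.96-fold within TBO and 4.11-fold within BTSO, compared with 1.82-fold and 1.95-fold for PEPCK1.

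**Figure D1:**
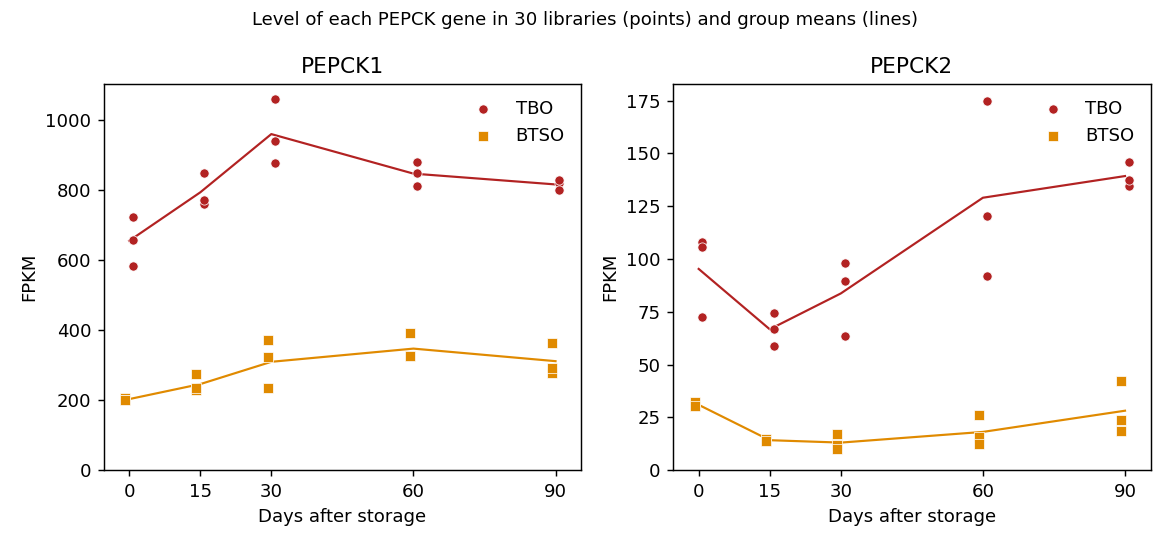
FPKM of PEPCK1 (left) and PEPCK2 (right) against days after storage, with 1 point for each library (3 for each variety and day, drawn slightly apart) and lines through the group means of TBO and BTSO. All TBO points lie above all BTSO points of the same gene, and PEPCK2 in BTSO is lowest at 15 and 30 DAS.

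For the order of the groups, both genes had the 5 TBO groups above the 5 BTSO groups, with no overlap between the varieties. Within each variety, only 15 and 0 DAS of PEPCK1 were neighbours in the order whose libraries did not overlap. For PEPCK2 all neighbouring groups of the same variety overlapped. Of the sum of squares of log2(FPKM + 1) over the 30 libraries, variety took 89.4% for PEPCK1 and 83.1% for PEPCK2, storage day 7.01% and 9.13%, variety by day 1.04% and 2.76%, and replicates 2.59% and 5.0%. The study picked both genes on these libraries for a difference between the varieties on every day. The separation and the variety shares are therefore in part set by that choice, and no share over all genes is set beside them.

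The storage changes within each variety were compared with limma on log2(FPKM + 1), with Benjamini-Hochberg adjustment over the 16578 genes that passed a filter on low values. Both PEPCK genes passed it. Of 20 storage tests on the pair (4 successive intervals and 0 to 90 DAS, in each variety), 3 passed an adjusted p of 0.05 and 8 had an unadjusted p under 0.05. The SE of a storage change was 0.13 for PEPCK1 and 0.26 for PEPCK2 on this log2 scale.

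PEPCK1 rose between 0 and 90 DAS in BTSO, by 0.60 on the log2 scale (adjusted p = 0.000658, limma). The group means were 203 ± 3.67 and 311 ± 45.9 FPKM (n = 3 each), a 1.53-fold difference. In this comparison 32.2% of all genes tested rose, and the change of PEPCK1 stood at position 2531 of 16578 from the largest increase. The median change of all genes was 0.13, and the change of PEPCK1 exceeded it by 0.47.

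In TBO, the same comparison gave PEPCK1 a change of 0.32 (adjusted p = 0.0435, limma), where 37% of all genes tested rose. Group means were 655 ± 71.0 and 816 ± 15.7 FPKM (n = 3 each), and all 3 later libraries were above the earlier ones. This call was not stable. The change was 0.21 after upper-quartile scaling (adjusted p = 0.143) and 0.15 with edgeR on the estimated counts (adjusted p = 0.266), and 5 of the 6 fits without 1 library, those without replicates 1 or 3 of 0 DAS or any replicate of 90 DAS, gave adjusted p values from 0.0698 to 0.182. The median change of all genes was 0.16, and the change of PEPCK1 exceeded it by 0.16 in TBO.

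No single interval of PEPCK1 passed the test in either variety. Among all genes tested, 11.9%, 20.1%, 6.45% and 27.1% changed in either direction over the successive intervals in TBO, and 34.9%, 11.9% and 25.5% over those after 15 DAS in BTSO. From 0 to 15 DAS in BTSO, 612 of the 16578 genes rose and 1303 fell. From 0 to 15 DAS the change was 0.28 in TBO (adjusted p = 0.177) and 0.27 in BTSO (adjusted p = 0.194), and from 15 to 30 DAS it was 0.27 (adjusted p = 0.155) and 0.31 (adjusted p = 0.0745). The BTSO change of 15 to 30 DAS was 0.50 without replicate 1 of 30 DAS (adjusted p = 0.00299) and 0.39 without replicate 2 of 15 DAS (adjusted p = 0.0472). From 30 to 60 DAS PEPCK1 changed by -0.18 in TBO (adjusted p = 0.502) and 0.19 in BTSO (adjusted p = 0.392), and from 60 to 90 DAS by -0.05 (adjusted p = 0.810) and -0.16 (adjusted p = 0.408).

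PEPCK2 fell in BTSO during the first 15 days, by 1.07 on the log2 scale (adjusted p = 0.00907, limma). The FPKM went from 31.0 ± 1.1 to 14.2 ± 0.541 (n = 3 each), a fall of the mean to 0.459 of its level. At this interval 7.86% of all genes tested fell, and PEPCK2 had the position 169 of 16578 from the largest decrease. The call held in all 6 fits without 1 library, with adjusted p values from 0.0230 to 0.0361, and under edgeR and DESeq2. In TBO the change over the same interval was -0.49 (adjusted p = 0.234).

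The later changes of PEPCK2 did not pass the test. In BTSO they were -0.14 from 15 to 30 DAS (adjusted p = 0.716), 0.41 from 30 to 60 DAS (adjusted p = 0.326) and 0.59 from 60 to 90 DAS (adjusted p = 0.103). The last of these was 0.86 without replicate 3 of 60 DAS (adjusted p = 0.0227) and 0.83 without replicate 2 of 90 DAS (adjusted p = 0.0345). In TBO they were 0.30 (adjusted p = 0.449), 0.59 (adjusted p = 0.195) and 0.16 (adjusted p = 0.697). Over the whole of storage PEPCK2 changed by 0.56 in TBO (adjusted p = 0.0707) and by -0.21 in BTSO (adjusted p = 0.528), and in a fit of the TBO libraries alone the first value had an adjusted p of 0.0402.

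**Figure D2:**
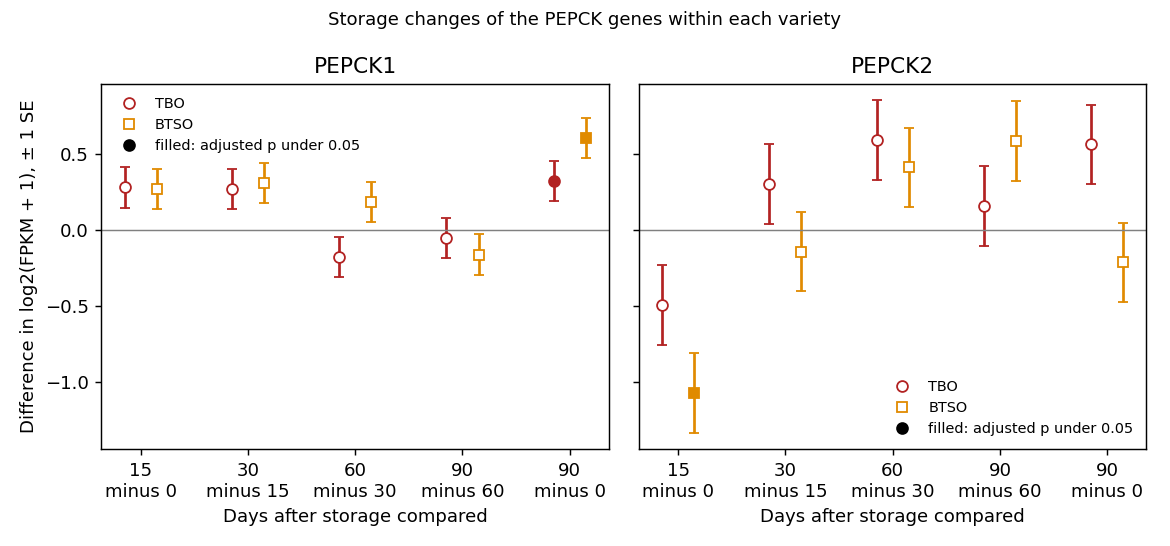
Differences in log2(FPKM + 1) between storage days within TBO (circles) and BTSO (squares) for PEPCK1 (left) and PEPCK2 (right), with bars of 1 SE, and filled symbols where the adjusted p was under 0.05. The filled symbols are PEPCK1 from 0 to 90 DAS in both varieties and PEPCK2 from 0 to 15 DAS in BTSO.

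Whether the storage changes differed between the varieties was tested as an interaction, the TBO change minus the BTSO change. None of the 10 interactions of the pair passed the test in limma, edgeR or DESeq2, and 1 had an unadjusted p under 0.05 in limma. Of all genes tested, 0.923% passed it from 0 to 15 DAS, 2.35% from 15 to 30 DAS, 2.09% from 30 to 60 DAS, 2.29% from 60 to 90 DAS and 12.4% from 0 to 90 DAS. The interaction with that unadjusted p was PEPCK2 from 0 to 90 DAS, at 0.78 with an SE of 0.37 (adjusted p = 0.184). Without replicate 1 of BTSO at 90 DAS, the library with the highest PEPCK2 level in that variety, it was 1.1 (adjusted p = 0.0392). For PEPCK1 the corresponding value was -0.28 with an SE of 0.19 (adjusted p = 0.367). The fall of PEPCK2 in BTSO from 0 to 15 DAS was thus not shown to differ from the TBO change, since the interaction was 0.58 with an SE of 0.37 (adjusted p = 0.506).

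The difference between the varieties is given as a description, because the study picked both genes on these libraries. They came from genes that differed between the varieties on every day and lay in coexpression modules that followed citrate and anthocyanin content. The lowest TBO library was above the highest BTSO library on all 5 days, and the share of all genes separated in this way was not computed. By another measure, the limma call of each day, 27.2%, 34.2%, 30.3%, 28.1% and 32.3% of all genes were higher in TBO in day order. PEPCK1 had 3.22 times the BTSO mean at 0 DAS, 3.23 times at 15 DAS, 3.1 times at 30 DAS, 2.44 times at 60 DAS and 2.62 times at 90 DAS. PEPCK2 had 3.08 times the BTSO mean at 0 DAS, 4.69 times at 15 DAS, 6.40 times at 30 DAS, 7.11 times at 60 DAS and 4.94 times at 90 DAS. The ratio of the means was therefore nearly equal for the pair at 0 DAS, and it was larger for PEPCK2 on the 4 later days. Among the 16578 genes tested, the log2 difference of PEPCK1 stood between position 150 and position 718 from the top over the days, and that of PEPCK2 between position 75 and position 181. The study also assayed both genes by quantitative PCR. Of the pair, it named only PEPCK2 as significantly higher in TBO throughout storage.

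The balance between the 2 genes was measured as the log2 ratio of PEPCK1 to PEPCK2 FPKM within each library. At 0 DAS the TBO libraries had a mean ratio of 2.80 ± 0.46 and the BTSO libraries one of 2.71 ± 0.07 (SD, n = 3 each), and they overlapped. Over the 4 later days it ran through 3.58 ± 0.12, 3.54 ± 0.46, 2.76 ± 0.49 and 2.55 ± 0.09 for TBO, and through 4.1 ± 0.09, 4.57 ± 0.35, 4.32 ± 0.65 and 3.54 ± 0.79 for BTSO. From 15 DAS onwards every BTSO library had a higher ratio than every TBO library of the same day. How often other pairs of genes separate in this way was not computed. With 3 libraries against 3, the two-sided exact permutation test gave p = 0.1 on each of these 4 days, the smallest p that this design allows, and an adjusted p of 0.175 over the 7 tests of the ratio. As a share of the summed FPKM of the pair, PEPCK2 made up 12.8% ± 3.30 in TBO and 13.2% ± 0.567 in BTSO at 0 DAS, but 8.12% ± 2.15 and 4.1% ± 0.908 at 30 DAS (n = 3 each).

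From 0 to 90 DAS the ratio changed by 0.83 in BTSO (exact permutation p = 0.3, adjusted p = 0.42) and by -0.25 in TBO (exact permutation p = 0.4, adjusted p = 0.467), with overlapping libraries in both. The TBO value rested on replicate 2 of 0 DAS, which had the lowest PEPCK2 level of that group, and was 0.01 without it. Within a variety no relation between the levels of the pair passed a test. Over the 15 libraries of each variety, Pearson's r between log2 levels was -0.11 in TBO (permutation p = 0.707, adjusted 0.707) and -0.36 in BTSO (permutation p = 0.182, adjusted 0.364). Spearman's rho was -0.03 (permutation p = 0.924, adjusted 0.924) and -0.30 (permutation p = 0.269, adjusted 0.599), among 4 relations computed. Without the 2 libraries farthest from the median of PEPCK1, r was 0.19 in TBO and -0.18 in BTSO. Within days, as deviations from the day means, r was -0.50 in TBO (permutation p = 0.145) and -0.23 in BTSO (permutation p = 0.515), and without the 2 farthest libraries these values were -0.35 and -0.68.

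**Figure D3:**
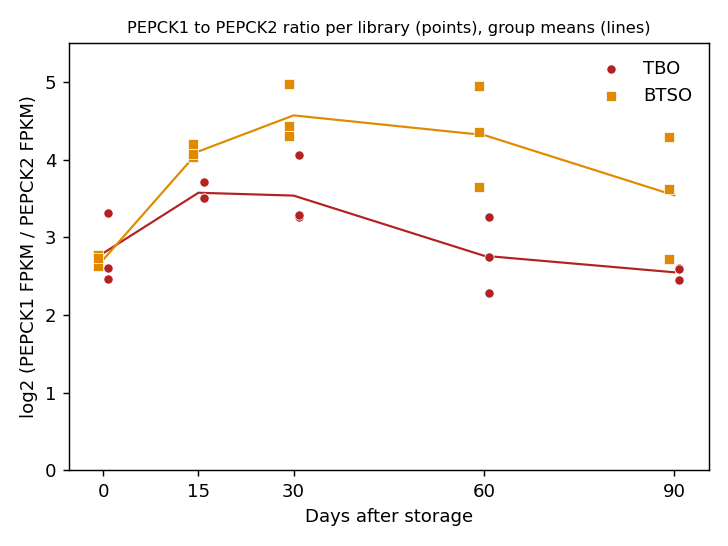
The log2 ratio of PEPCK1 to PEPCK2 FPKM against days after storage, with 1 point for each library and lines through the group means of TBO and BTSO. The varieties overlap at 0 DAS, and from 15 DAS all BTSO points lie above all TBO points of the same day.

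Other genes carried a PEPCK annotation at much lower levels. Gene orange1.1t02753, described as uncharacterized and linked to PEPCK by its EC number, had a mean FPKM of 10.2 over the 30 libraries. In TBO it went from 9.22 ± 0.182 FPKM at 0 DAS to 18.8 ± 1.2 at 90 DAS, a rise of 0.96 on the log2 scale (adjusted p = 1.71e-08). In BTSO it went from 5.44 ± 0.392 to 10.1 ± 0.888, a rise of 0.79 (adjusted p = 5.51e-07), and it was higher in TBO at 0 DAS by 0.67 (adjusted p = 4.85e-06). Cs5g25210, a hypothetical protein with a PEPCK term in the Gene Ontology, had a mean FPKM of 4.22. It rose by 0.59 in TBO (adjusted p = 0.00266) and changed by 0.20 in BTSO (adjusted p = 0.290), and quantile normalization gave 0.36 (adjusted p = 0.0415) and 0.01 (adjusted p = 0.952). The functions of both proteins are not known from these annotations.

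The opposing enzyme, PEPC, had 5 genes, and their summed FPKM stayed within 123 and 305 in all libraries. The summed FPKM of PEPCK1 and PEPCK2 was 4.46 ± 0.398 times that of PEPC in TBO and 1.24 ± 0.0481 times in BTSO at 0 DAS (n = 3 each). The PEPC sum itself was 169 ± 20.3 in TBO and 189 ± 10.0 in BTSO on that day. The study picked the pair for a difference between the varieties, so the variety difference of this ratio is in part set by that choice. In TBO this ratio had a lower mean of 3.46 ± 0.642 after 15 days, with all 3 libraries under those of 0 DAS, and then ran through 4.39 ± 0.181 and 4.72 ± 0.674 on the next sampling days. The BTSO means of the same days were 1.4 ± 0.0278, 1.91 ± 0.142 and 2.01 ± 0.119. At 90 DAS the ratio was 6.48 ± 0.184 in TBO and 2.25 ± 0.373 in BTSO, and in both varieties all 3 libraries of 90 DAS were above those of 0 DAS. The most abundant PEPC gene, Cs7g12630, changed by 0.03 in TBO (adjusted p = 0.929) and -0.25 in BTSO (adjusted p = 0.452) from 0 to 90 DAS, and the sign of the TBO value turned under upper-quartile scaling, edgeR and DESeq2. Of the 5 PEPC genes, 1 rose and 1 fell in TBO, where 37% of all genes tested rose and 18.1% fell. In BTSO 2 of the 5 fell, where 16.7% of all genes tested fell. The second most abundant PEPC gene, Cs2g15520, named after its values were seen, had a mean FPKM of 51.4 over the 30 libraries. It fell by 0.91 in TBO (adjusted p = 0.000541) and by 1.26 in BTSO (adjusted p = 2.33e-05). Cs8g12690, the PEPC kinase gene, changed by -0.21 in TBO (adjusted p = 0.376) and -0.07 in BTSO (adjusted p = 0.803). The TBO value was -0.48 under quantile normalization, where it passed the test (adjusted p = 0.0437), and -0.69 in edgeR (adjusted p = 0.224), and the BTSO value was -0.29 in edgeR (adjusted p = 0.628).

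The PEPCK pair was then set beside a pathway list of 71 genes, made up of the 2 other PEPCK-annotated genes and 69 genes of 13 neighbouring enzymes. Of these, 64 passed the filter, 62 of them genes of neighbouring enzymes. Of the 71, 43 were assigned through an EC number or Gene Ontology term because their description named no enzyme. From 0 to 90 DAS, 29 of the 64 genes fell and 9, among them both other PEPCK-annotated genes, rose in TBO, where 18.1% of all genes tested fell and 37% rose. In BTSO 30 fell and 7, with 1 PEPCK-annotated gene among them, rose, where 16.7% of all genes tested fell and 32.2% rose. The median change of the list was -0.26 in each variety, against 0.16 in TBO and 0.13 in BTSO for all genes, and PEPCK1 was higher than 55 of the 64 genes in TBO and 59 in BTSO. PEPCK2 was higher than 57 of them in TBO and 34 in BTSO.

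Several of the falls were in genes of enzymes that share a substrate or product with PEPCK. Malate dehydrogenase, which links malate to oxaloacetate, had 5 of 6 genes lower in TBO and 4 of 6 in BTSO at 90 DAS, among them its most abundant gene Cs9g10470, which fell by 0.54 (adjusted p = 0.00152) and 0.84 (adjusted p = 1.92e-05). Aspartate aminotransferase, which links oxaloacetate to aspartate, had 6 of 9 and 5 of 9 genes lower. Its most abundant gene, Cs4g16050, fell by 0.82 in TBO (adjusted p = 3.40e-05) and by 0.42 in BTSO (adjusted p = 0.0173), and the BTSO call was lost under quantile normalization. Pyruvate kinase, which turns phosphoenolpyruvate into pyruvate, had 6 of 10 genes lower and 2 higher in TBO and 6 lower and 1 higher in BTSO. The most abundant of them, Cs6g15670, was one of the 2 that rose in TBO, by 0.47 (adjusted p = 0.000174), and it changed by 0.13 in BTSO (adjusted p = 0.245). The BTSO sign turned with edgeR and DESeq2, while quantile normalization gave 0.28 (adjusted p = 0.0195).

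Pyruvate, phosphate dikinase, which regenerates phosphoenolpyruvate from pyruvate, had 1 gene, Cs9g05370, and it fell by 0.52 in TBO (adjusted p = 0.000195) and by 0.30 in BTSO (adjusted p = 0.0208), with larger values of -1.04 and -0.63 in edgeR. Malic enzyme, which decarboxylates malate to pyruvate, had 1 of 6 genes higher and 1 lower in TBO, and 1 higher and 2 lower in BTSO. Its most abundant gene, Cs1g15720, went from 93.1 ± 4.06 to 214 ± 7.76 FPKM in TBO, a rise of 1.19 (adjusted p = 7.84e-08), and from 46.8 ± 3.34 to 73.8 ± 10.5 in BTSO, a rise of 0.64 (adjusted p = 0.000316). Cs4g19200, named after its values were seen, fell in both varieties, with changes of -1.17 in TBO (adjusted p = 8.76e-06) and -2.04 in BTSO (adjusted p = 7.34e-09), where no other gene of the list fell further. On the route to sugars, the most abundant enolase gene (Cs6g15530;Cs6g15540) changed by -0.21 in TBO (adjusted p = 0.0968) and -0.02 in BTSO (adjusted p = 0.875). The TBO value passed the test under upper-quartile scaling (-0.33, adjusted p = 0.0211), in edgeR (-0.38, adjusted p = 0.00821) and in DESeq2 (-0.38, adjusted p = 0.00315). The most abundant fructose-1,6-bisphosphatase gene, Cs3g21280, fell by 0.66 in TBO (adjusted p = 0.000242) and changed by -0.18 in BTSO (adjusted p = 0.292), where edgeR gave -0.33 (adjusted p = 0.0433) and DESeq2 -0.35 (adjusted p = 0.0281).

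In citrate metabolism, the most abundant citrate synthase gene, orange1.1t01588, changed by 0.20 in TBO (adjusted p = 0.0610) and 0.04 in BTSO (adjusted p = 0.758), the latter with a sign that turned under upper-quartile scaling, edgeR and DESeq2. The TBO value was 0.24 under quantile normalization (adjusted p = 0.0295) and 0.03 in edgeR (adjusted p = 0.803). The most abundant aconitate hydratase gene, Cs1g26040, changed by -0.04 (adjusted p = 0.768) and 0.10 (adjusted p = 0.423), each with a sign that turned under another method, the TBO one under quantile normalization and the BTSO one in edgeR and DESeq2. The most abundant isocitrate dehydrogenase gene, orange1.1t04187, rose by 0.40 in TBO (adjusted p = 0.000390) and by 0.25 in BTSO (adjusted p = 0.0202), and the BTSO call was lost under upper-quartile scaling (0.16, adjusted p = 0.135), in edgeR (0.11, adjusted p = 0.353) and in DESeq2 (0.09, adjusted p = 0.418). In TBO edgeR gave 0.23 (adjusted p = 0.0416). ATP-citrate lyase, which splits citrate in the cytosol, had its most abundant gene, Cs9g02230, rise by 0.81 in TBO (adjusted p = 0.000733) and fall by 0.89 in BTSO (adjusted p = 0.000380), and the interaction was 1.69 with an SE of 0.26 (adjusted p = 0.000128).

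**Figure D4:**
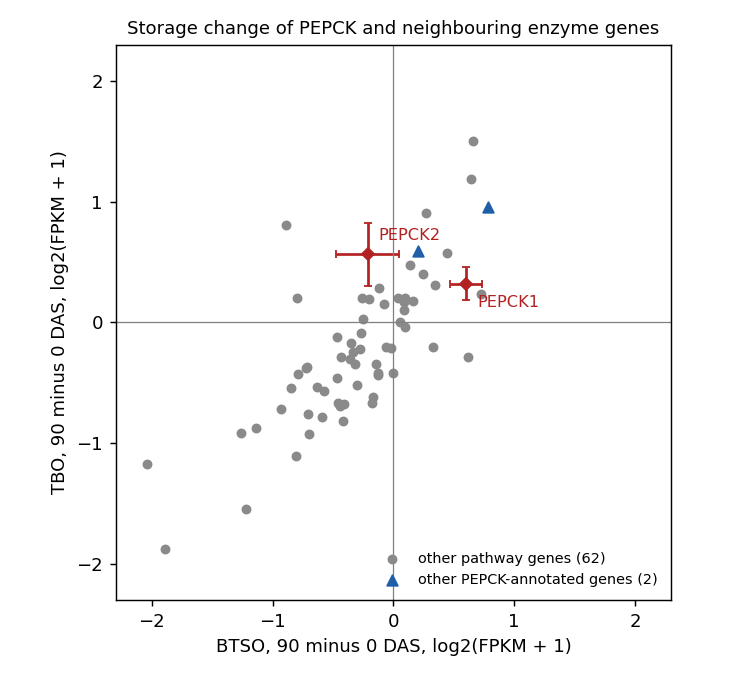
Change in log2(FPKM + 1) from 0 to 90 DAS in BTSO (horizontal) and TBO (vertical) for PEPCK1 and PEPCK2 (diamonds with bars of 1 SE), the 2 other PEPCK-annotated genes (triangles) and 62 genes of neighbouring enzymes (grey points). Most grey points lie below 0 on both axes, while PEPCK1 lies above 0 on both and PEPCK2 above 0 in TBO only.

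Between the varieties, TBO had higher levels than BTSO of 11 of the 64 listed genes before storage, 1 of them PEPCK-annotated, and lower levels of 11, where 27.2% of all genes tested were higher and 20% lower. At 90 DAS the numbers were 18, with both PEPCK-annotated genes, and 13, against 32.3% and 20.4% of all genes. The list was drawn by annotation, whereas the study picked the pair on these libraries for a difference between the varieties. The place of the pair against the list is therefore in part set by that choice. All 64 had a smaller TBO minus BTSO difference than PEPCK1 and PEPCK2 at 0 DAS. The nearest was the malic enzyme gene Cs1g15720, at 0.98 with an SE of 0.13 (adjusted p = 2.51e-06), against 1.68 for PEPCK1 and 1.57 for PEPCK2. At 90 DAS the difference was 1.4 for PEPCK1 and 2.35 for PEPCK2, and that of ATP-citrate lyase Cs9g02230 exceeded both, at 2.54 with an SE of 0.18 (adjusted p = 1.45e-10). The malic enzyme gene Cs1g15720, at 1.53 with an SE of 0.13 (adjusted p = 1.97e-09), exceeded PEPCK1 only.

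Genes with the pattern most like each PEPCK gene were ranked by Pearson's r of log2(FPKM + 1). Over all 30 libraries, which share the difference between the varieties, the 5 nearest to PEPCK1 had r from 0.97 to 0.98, and 308 genes reached 0.9. Among the 5 were Cs9g11190, annotated as chalcone synthase 1, the entry enzyme of flavonoid synthesis, with a mean FPKM of 1128 in TBO and 3.43 in BTSO, and Cs9g18820;Cs9g18830, annotated as an anthocyanidin glucosyltransferase. The other three (Cs2g21750, Cs4g15690 and orange1.1t01749) were hypothetical or uncharacterized. For PEPCK2 the 5 nearest had r from 0.95 to 0.96. They were Cs9g10300 (probable methyltransferase PMT8), Cs5g10870 (a NAC domain protein), Cs2g28200 (farnesyltransferase subunit beta) and the hypothetical Cs1g05280 and orange1.1t01089.

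With the variety means taken off, which leaves storage day and replicate, the nearest genes were others. For PEPCK1 the highest r was 0.91, with Cs1g22140, annotated as an indole-3-acetic acid-amido synthetase (GH3.1), an enzyme that conjugates auxin, whose mean FPKM was 82.8 in TBO and 78.6 in BTSO. The next were Cs2g30230, Cs7g03350, Cs2g23240 and Cs5g21250, with r from 0.86 to 0.89. For PEPCK2 the highest r was 0.81, with the hypothetical gene Cs8g18570, followed by Cs9g10300, which was also nearest over all libraries, at 0.80. Cs3g27730;Cs3g27740, Cs2g30590 and Cs4g06850, the last annotated as sucrose synthase, had r of 0.79. Ranked the same way, PEPCK2 was at position 13435 of 16577 genes for PEPCK1. These values describe likeness over libraries that are grouped by storage day and differ in total estimated counts, and no test was made.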

How the data were processed

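Per the labels, 30 RNA-seq libraries were grouped by variety and storage day. The authors assembled and merged transcripts with StringTie and deposited, for every gene in every library, an FPKM value and an estimated count. The submitters' processing notes name HISAT2 2.0, StringTie 1.3.0 and Bowtie 0.12.2; the orange genome build and strand setting are not given in the sources used here. The deposited estimated counts are whole numbers without normalization, are not read numbers, and were used for alternatives. FPKM divides by library total, so a few abundant genes can shift the rest.

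The test was limma (version 3.58.1, R 4.3.3) on log2(FPKM + 1), a pseudocount of 1, over the 16578 genes that reached an FPKM of 1 or more in 3 or more libraries, with 1 mean per group, all 30 libraries and a variance trend, two-sided, and called at an adjusted p under 0.05. A fold change on this scale understates the change of low genes. Alternatives used edgeR 4.0.16, DESeq2 1.42.0, other scalings, filters and pseudocounts, and single libraries left out. The fit was tested on simulated data. Correlations used 100000 permutations. The members, lists and tests were chosen with earlier results of these data known. Named genes were PEPCK1 and PEPCK2, the most abundant gene of each neighbouring enzyme (2 exceptions are marked), all other genes annotated as PEPCK or PEPC kinase, and the 5 genes nearest to each PEPCK gene by r, with and without the variety means. Of all genes, 636 had no reference name and were kept, at 0.936% to 3.45% of the counts. No 2 libraries of a group were identical.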

Additional observations from a re-analysis of the deposited data

How the results depend on the processing

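Of 912 alternative values for 55 results, 868 were counted as the same and 2 as reversed. A sign that turned between values that both missed the call was counted as the same. So were a variety difference or ratio within 1 SD of its main value and a pathway count of similar size. For example, the uncalled change of PEPCK2 from 0 to 90 DAS in BTSO ranged from -0.54 to 0.03 without single libraries. The fall of PEPCK2 in BTSO from 0 to 15 DAS kept its call in all alternatives. With calls also limited to a log2 difference over 1, PEPCK1 from 0 to 90 DAS was not called in TBO (0.32) or BTSO (0.60), and the BTSO change kept its call elsewhere. The TBO change lost its call without the filter (0.32, adjusted p = 0.0658), under upper-quartile scaling (0.21), in edgeR (0.15) and in DESeq2 (0.16). Calls were gained by PEPCK1 in BTSO from 15 to 30 DAS under quantile normalization (0.38) and from 0 to 15 DAS in DESeq2 (0.32), and by PEPCK2 in TBO from 0 to 90 DAS in a fit of that variety alone (0.56). The causes were not tested.

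The variety difference of PEPCK1 at 15 DAS was 1.48 under upper-quartile scaling and 1.52 in edgeR. Of the pathway genes, those higher in TBO at 0 DAS numbered 6 under upper-quartile scaling and 7 in edgeR and DESeq2, and those lower at 90 DAS 21 under upper-quartile scaling and 20 under quantile normalization. Those that rose in BTSO numbered 4 in edgeR and DESeq2. With the log2 limit 2 rose and 4 fell in TBO, 0 and 5 in BTSO, TBO exceeded BTSO in 0 genes at 0 DAS and in 3 at 90 DAS, and BTSO exceeded TBO in 0 on both days. The share of increases among all genes called from 0 to 90 DAS was 67.2% in TBO and 65.9% in BTSO, 57.1% and 56.8% after upper-quartile scaling, and 49.6% and 51.0% after quantile normalization. At 0 DAS the share higher in TBO was 57.7%, and 44.5% after upper-quartile scaling.

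Without single libraries, the TBO change of PEPCK1 from 0 to 90 DAS ranged from 0.24 to 0.40, the BTSO change from 15 to 30 DAS from 0.16 to 0.50, the BTSO change of PEPCK2 from 60 to 90 DAS from 0.26 to 0.86, and its interaction from 0 to 90 DAS from 0.53 to 1.1. The variety difference of PEPCK1 at 30 DAS ranged from 1.46 to 1.80 and that of PEPCK2 at 90 DAS from 2.10 to 2.67. The log2 ratio of PEPCK1 to PEPCK2 ranged from -0.41 to 0.014 for 0 to 90 DAS in TBO and from -0.18 to 0.25 for TBO minus BTSO at 0 DAS, each reversed without replicate 2 of TBO at 0 DAS. Pathway genes higher in TBO at 0 DAS numbered 7 to 12 (7 without BTSO replicate 3), those lower 5 to 13 (5 without TBO replicate 1, 6 without BTSO replicate 2), and those lower at 90 DAS 7 to 17 (7 without BTSO replicate 3).

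With the replicate number as a block, PEPCK1 from 0 to 90 DAS in TBO kept 0.32 (adjusted p = 0.0348), and no call changed. The labels do not say that the numbers pair the samples. Same-numbered libraries had a mean correlation of 0.02 between their deviations from the group means, with 33 of 135 pairs over 0.1. Other-numbered libraries had a mean of -0.01, with 37 of 270 pairs over 0.1. Whether the numbers pair the samples was not tested. Precision is limited by 3 libraries per group, and read numbers, which the study's supplement lists, were not used here.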

Other observations

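The spread of PEPCK2 between replicates of BTSO differed by day. The coefficient of variation of FPKM was 3.57% before storage and 3.8% at 15 DAS, and it was 27.6%, 38.3% and 43.9% at 30, 60 and 90 DAS (n = 3 each). In TBO it ranged from 4.26% at 90 DAS to 32.6% at 60 DAS. For PEPCK1 the coefficient stayed between 1.81% and 22.6% in the 10 groups.

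The PEPC kinase gene Cs8g12690 was near the limit of the filter in most groups, with group means from 0.521 to 1.16 FPKM, except BTSO at 30 DAS. There it was 2.71 ± 0.335 (n = 3), and the lowest of the 3 libraries, at 2.44, was above the highest library of all other groups, at 1.59. This gene and this day were singled out after the values were seen.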
